A study of Mus musculus with 6 samples.

Results

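The phagocyte NADPH oxidase and a set of antioxidant enzymes were followed in tumor-associated macrophages (TAMs) of mouse melanomas that could or could not make prostaglandins. The genes were given as a list by symbol: 5 oxidase subunits (Cybb, Cyba, Ncf1, Ncf4 and Rac2) and 4 antioxidant enzymes (Sod2, Prdx1, Txnrd1 and Gpx1). They are 9 of the 39179 genes in the count table. All 9 were among the 8793 genes that passed the filter on low counts, and the lowest count of any of them in a library was 77, for Sod2.

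TAMs came from tumors of a melanoma line of C57BL/6 origin driven by mutant Braf, grown in C57BL/6 hosts of 8 weeks. In the COX-competent group (Ptgs+/+) the tumor cells were wildtype, and in the COX-deficient group (Ptgs-/-) both Ptgs1 and Ptgs2, the genes of the cyclooxygenases COX-1 and COX-2, had been disrupted in the tumor cells by CRISPR/Cas9. The macrophages themselves were of host genotype in both groups, so the comparison asks how TAMs differ with the cyclooxygenases of the tumor around them. Each group had 3 libraries, each from a pool of tumors, sorted for CD45, CD11b and F4/80, without Ly6G or NK1.1 and with no or dim Ly6C. Whether the edited tumor cells were 1 clone was not given in the sources used here. The p-values below measure the spread between these pools.

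The oxidase moves electrons from NADPH across a membrane onto oxygen and so makes superoxide, which macrophages and neutrophils use against microbes. Its catalytic core, NOX2 (gp91phox, encoded by Cybb), sits in the membrane with p22phox (Cyba), which holds it stable. The complex is switched on when cytosolic subunits, among them p47phox (Ncf1) and p40phox (Ncf4), move in together with a small GTPase of the Rac family. Superoxide is turned into hydrogen peroxide by superoxide dismutases, of which Sod2 is the mitochondrial form. Peroxide is then reduced by peroxiredoxins such as Prdx1, which draw on thioredoxin and its reductase Txnrd1, and by glutathione peroxidases such as Gpx1.

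The DNA upstream of these genes is shown first, since Cybb and Ncf1 are known interferon-inducible genes and Prdx1 and Txnrd1 are known targets of the stress factor NRF2. Upstream windows of 250 bases from RefSeq (GRCm38.p6) were found for 7 of the 9 genes, as 9 windows, of which Txnrd1 had 3. Ncf4 and Rac2 had none. Both strands were searched for the letters of 3 motifs: the interferon-stimulated response element (ISRE, GAAANNGAAA), the gamma-activated site (GAS, TTCNNNGAA) and the antioxidant response element (ARE, TGACNNNGC). Of 32851 such windows over all genes, 2.98% held the ISRE letters, 7.02% the GAS letters and 10.2% the ARE letters. The Cybb window held 3 ISRE matches, at 168 to 159, 124 to 115 and 29 to 20 bases before the start, and 4 of all windows (0.0122%) held 3 or more. The stretch that spans them lies at chrX:9469329-9469507 on the minus strand. In the later GENCODE M21 annotation it falls within the span of Cybb, which there begins further upstream. Capitals mark the matches.
Cybb: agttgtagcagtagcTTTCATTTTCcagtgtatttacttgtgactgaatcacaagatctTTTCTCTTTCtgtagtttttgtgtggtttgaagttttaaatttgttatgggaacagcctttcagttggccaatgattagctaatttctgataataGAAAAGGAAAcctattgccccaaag

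The Ncf1 window held a GAS match at 88 to 80 bases before the start and an ISRE match at 82 to 73, which share 3 bases. They lie at chr5:134229683-134229728 on the minus strand, shown with the joined pair in capitals. The Sod2 window held a GAS match at 185 to 177 bases before the start, at chr17:13007639-13007677 on the plus strand, which like the Cybb stretch falls within the GENCODE span of its gene.
Ncf1: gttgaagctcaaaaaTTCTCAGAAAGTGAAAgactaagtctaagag
Sod2: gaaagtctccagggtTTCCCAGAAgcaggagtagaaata

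Prdx1 and Txnrd1 each held the ARE letters once, on the strand opposite to the gene, at 133 to 125 and 92 to 84 bases before their starts. The Prdx1 stretch is chr4:116685451-116685489 and the Txnrd1 stretch chr10:82859099-82859137, both on the plus strand, and the latter falls within the GENCODE span of Txnrd1. They are shown as the ARE-type sequences among these genes. Txnrd1 also held the GAS letters, at 230 to 222 bases before the start in the same window and at 73 to 65 in another of its windows.
Prdx1: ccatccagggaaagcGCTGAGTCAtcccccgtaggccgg
Txnrd1: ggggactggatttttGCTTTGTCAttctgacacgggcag

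No letters of the 3 motifs were found in the windows of Cyba and Gpx1. A match is a run of letters, not a measured binding site.

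Library totals ranged from 4431184 to 8760679 counts, and 7794 to 10714 genes had a count. Levels below are CPM, read counts brought to a common depth with TMM scaling. Libraries of 1 group differed strongly, with Pearson correlations of log2 CPM across genes of 0.48 to 0.55 within the COX-competent group and 0.60 to 0.72 within the COX-deficient group. COX-competent replicate 3 stood apart. Its 11 macrophage markers summed to 6433 CPM, against 16610 and 17900 in the other COX-competent libraries and 21140 to 25330 in the COX-deficient ones. Csf1r, the receptor for the macrophage growth factor, was at 231 CPM in that library and at 797 or more in the others. Its 18 melanoma and fibroblast markers summed to 1356 CPM, against 381 and 504 in its group and 53.3 to 114 in the COX-deficient group, although 8 of them, among them Mlana, Pmel, Tyr, Dct and Sox10, were at 0 in every library. The log2 fold changes below for single genes of the oxidase, antioxidant enzymes and wider pathway are therefore also given without COX-competent replicate 3. So are the counts of calls by the main edgeR test. For the macrophage markers, COX-competent means without that library are given in place of log2 fold changes.

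In TAMs from COX-deficient tumors the catalytic subunit of the oxidase and 1 peroxidase were higher without overlap between the groups. Cybb had a mean of 444 CPM there against 94.7 CPM in the COX-competent group, and Gpx1 had 1989 against 898 CPM. The other 7 genes overlapped between the groups. In the edgeR quasi-likelihood test, adjusted over all genes tested, calls needed a false discovery rate (FDR) no higher than 0.05 together with a log2 difference of at least 1.5, up or down. By that rule 0 of the 9 genes were called, where 19 genes, or 0.216% of those tested, were called in all. At an unadjusted p under 0.05, 2 of the 9 genes passed, Cybb and Gpx1, both higher, and the same 2 passed without COX-competent replicate 3. Over all genes 8.83% passed that threshold. The groups did not overlap for the same 2 of 9 genes (22.2%), a share close to the 19.0% of all genes. When COX-competent replicate 3 was left out, Ncf4 and Prdx1 also did not overlap, both lower, which made 4 of 9 against 28.5% of all genes. Cybb was called by 6 of 16 alternatives, among them the edgeR likelihood ratio test, which called 241 genes or 2.74%, and DESeq2, which called 328 genes or 3.73%.

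**Figure D1:**
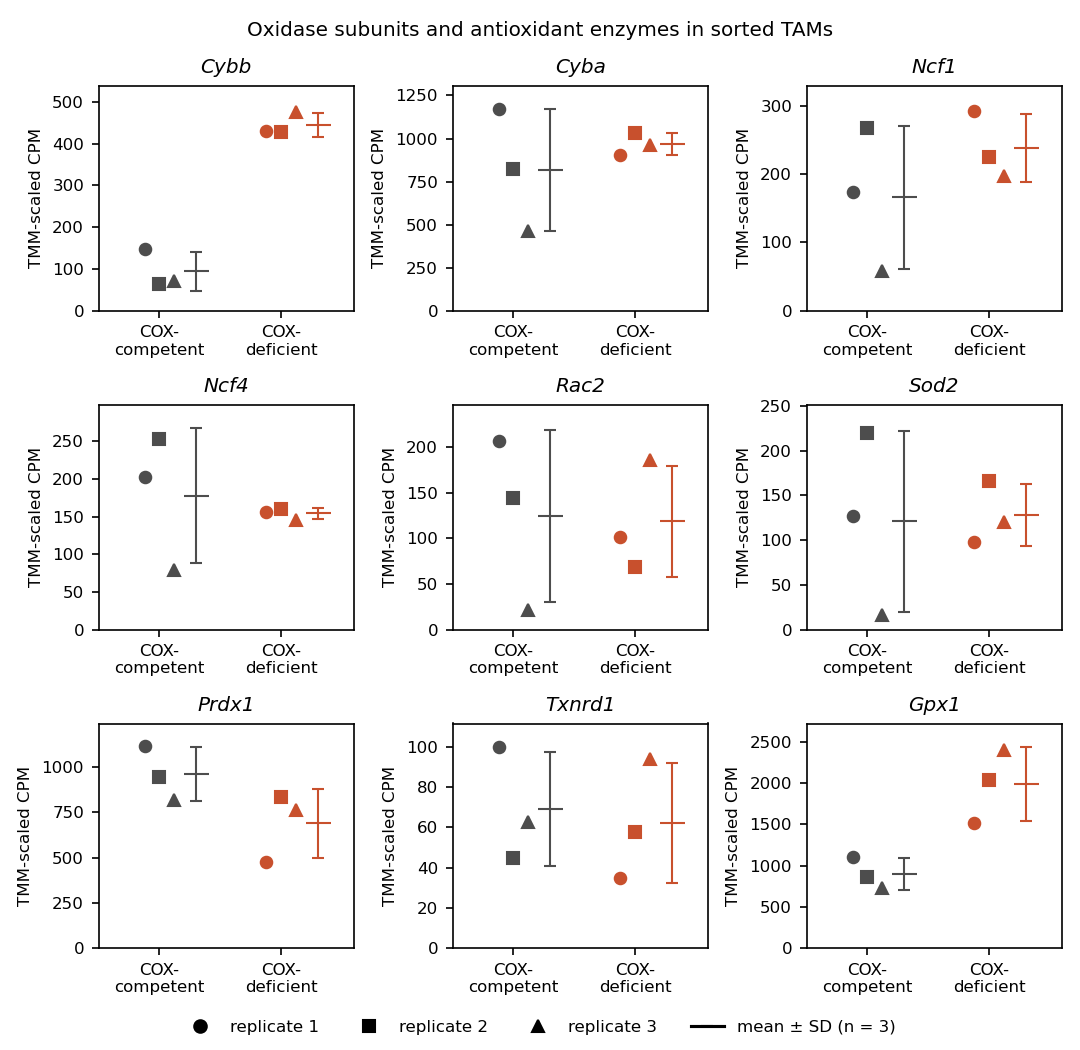
Levels of the 9 genes in each library, as TMM-scaled CPM on axes that start at 0; symbols mark replicates and the bars the mean ± SD of 3 libraries. Cybb and Gpx1 are the panels in which the groups do not overlap, and COX-competent replicate 3 is the lowest point for Cyba, Ncf1, Ncf4, Rac2, Sod2 and Gpx1.

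Cybb (ENSMUSG00000015340, chrX:9435252-9487771, minus strand) encodes NOX2, the subunit that carries the electrons. Its counts were 931, 395 and 329 in COX-competent replicates 1, 2 and 3, and 2353, 3590 and 2303 in COX-deficient replicates 1, 2 and 3. As CPM these were 148, 64.8 and 70.9 against 429.3, 427.5 and 476.6. The lowest COX-deficient library was well above the highest COX-competent one, and the COX-deficient libraries lay close together. The means were 94.7 ± 46.6 and 444.5 ± 27.8 CPM (SD, n = 3 each). The log2 fold change, COX-deficient over COX-competent, was 2.23 ± 0.41 (SE; 95% interval 1.31 to 3.15), a 4.69-fold higher level, with an adjusted p of 0.0762 in the edgeR quasi-likelihood test. Cybb was number 32 of all genes tested when ordered by p. Over the 16 alternatives its log2 fold change lay between 2.02 and 2.71 and its adjusted p between 7.32e-05 and 0.334. Without COX-competent replicate 3 the log2 fold change was 2.10 (edgeR adjusted p = 0.120).

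Markers of other myeloid cells also differed in level between the groups. In bulk libraries a larger share of cells that express a gene and more RNA per cell cannot be told apart. The 6 monocyte markers summed to 258 to 527 CPM in the COX-competent libraries and to 1452 to 2370 CPM in the COX-deficient libraries, with none of the 6 at 0 in every library. Plac8, Ccr2 and Ly6c2 carried that sum, whereas Vcan was lower without overlap, at 26.6, 85.2 and 31.0 CPM against 0, 17.1 and 0 CPM. The summed macrophage markers did not overlap between the groups either. As single genes, 6 of the 11 were higher without overlap, namely Emr1, Itgam, Fcgr1, C1qa, C1qb and C1qc, with log2 fold changes of 0.93 to 1.22. Over all genes 19.0% did not overlap, in either direction. Without COX-competent replicate 3 the COX-competent means of these 6 were, in that order, 277, 554, 210, 4413, 903 and 1366 CPM. The COX-deficient means were 460, 1052, 316, 6830, 1575 and 2451 CPM, so that library carried part of the differences. Csf1r, Cd68, Lyz2, Mertk and Ptprc overlapped, with log2 fold changes of -0.32 to 0.57. Without COX-competent replicate 3 their COX-competent means were 1469, 457, 7267, 104 and 235 CPM, against 1110, 466, 8057, 93.3 and 167 CPM. Csf1r and Ptprc were then lower without overlap, Csf1r at 1379 and 1559 against 1290, 797 and 1244 CPM. The 15 neutrophil markers summed to 699 to 854 CPM in the COX-competent libraries and 471 to 533 CPM in the COX-deficient libraries, and 4 of them, Ly6g, Mpo, Elane and Cd177, were at 0 throughout. They did not all go one way: S100a8, S100a9 and Hdc were lower without overlap, and Retnlg was higher without overlap, at 20.2, 59.9 and 16.2 CPM against 123, 114 and 180.2 CPM. Cybb is expressed by all of these cells, and their part in its level was not tested. Set against Csf1r, Cybb had 0.108, 0.0416 and 0.308 counts per Csf1r count in COX-competent replicates 1 to 3, and 0.333, 0.537 and 0.383 in the COX-deficient libraries. The groups did not overlap on that ratio, with COX-competent replicate 3, where Csf1r was low, close to the lowest COX-deficient library. Csf1r itself overlapped between the groups, and no ratio to a marker that was higher, such as Ccr2 or Itgam, was computed. The ratio to Csf1r was not tested.

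Cyba (ENSMUSG00000006519, chr8:122424776-122432930, minus strand) encodes p22phox, the membrane partner of NOX2. It measured 1171, 823 and 464 CPM in the COX-competent libraries and 903, 1031 and 963 CPM in the COX-deficient libraries. The COX-deficient values lay inside the COX-competent range, and COX-competent replicates 1 and 3 set both ends of it. On the log2 scale the difference was 0.24 ± 0.36 (SE; 95% interval -0.57 to 1.04; edgeR adjusted p = 0.9995), and without COX-competent replicate 3 it was 0.00019. A predicted gene on the other strand, Gm20388, overlaps Cyba and had 0 counts in every library.

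The counts of the membrane pair stood in different proportions in the 2 groups. There were 0.127, 0.0788 and 0.153 Cybb counts per Cyba count in the COX-competent libraries, and 0.475, 0.415 and 0.495 in the COX-deficient libraries. The means of this ratio were 0.119 ± 0.038 and 0.462 ± 0.042 (SD, n = 3 each), and the highest COX-competent library, replicate 3, lay below every COX-deficient one. The ratio is taken within a library, so it does not depend on how libraries were scaled. It was chosen after the values had been seen and was not tested.

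**Figure D2:**
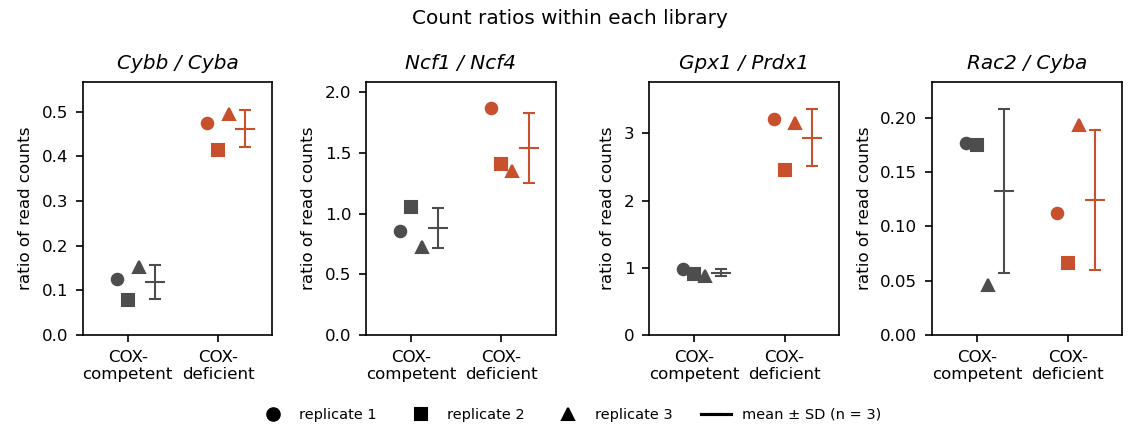
Ratios of read counts within each library for 4 gene pairs, with the mean ± SD of 3 libraries, on axes that start at 0. Cybb to Cyba, Ncf1 to Ncf4 and Gpx1 to Prdx1 separate the groups, and Rac2 to Cyba overlaps.

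The cytosolic subunits Ncf1 and Ncf4 overlapped widely between the groups. Ncf1 (ENSMUSG00000015950, chr5:134220053-134229625, minus strand) encodes p47phox, the organizer that docks on p22phox. It measured 173, 267 and 57.5 CPM in the COX-competent libraries and 293, 225 and 197 CPM in the COX-deficient libraries. COX-competent replicate 3 was the lowest, and replicate 2 exceeded 2 of the 3 COX-deficient libraries. As a log2 difference this was 0.52 ± 0.52 (SE; 95% interval -0.64 to 1.68; edgeR adjusted p = 0.9995), and 0.17 without COX-competent replicate 3. The gene Gtf2ird2 overlaps Ncf1 on the other strand and held 0, 21 and 0 counts in the COX-competent libraries and 0, 22 and 0 in the COX-deficient ones, few beside the 267 to 1892 counts of Ncf1.

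Ncf4 (ENSMUSG00000071715, chr15:78244801-78262580, plus strand) encodes p40phox, which binds a membrane lipid of phagosomes. It measured 202, 252 and 78.9 CPM in the COX-competent libraries and 156, 160 and 146 CPM in the COX-deficient libraries. The 3 COX-deficient values sat between COX-competent replicate 3 and the other 2. On the log2 scale the difference was -0.20 ± 0.46 (SE; 95% interval -1.24 to 0.83; edgeR adjusted p = 0.9995), and -0.51 without COX-competent replicate 3. Without COX-competent replicate 2 its sign turned, to 0.14.

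Ncf1 and Ncf4 counts also stood in a different proportion. The ratio of Ncf1 to Ncf4 counts was 0.859, 1.06 and 0.729 in the COX-competent libraries and 1.87, 1.41 and 1.35 in the COX-deficient libraries, or 0.883 ± 0.166 against 1.54 ± 0.287 (SD, n = 3 each). The groups did not overlap, and the library that was low for both genes, COX-competent replicate 3, had a ratio on the same side as its group. This ratio, too, was chosen after the values had been seen. Against Cyba, neither gene separated the groups. Ncf1 had 0.124 to 0.325 counts per Cyba count in the COX-competent libraries and 0.205 to 0.324 in the COX-deficient libraries, and Ncf4 had 0.170 to 0.306 against 0.151 to 0.173.

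Rac2 (ENSMUSG00000033220, chr15:78559167-78572783, minus strand) encodes the blood cell Rac GTPase that activates the oxidase. It measured 207, 144 and 21.3 CPM in the COX-competent libraries and 101.5, 68.6 and 186 CPM in the COX-deficient libraries. The ranges overlapped almost fully, since COX-competent replicate 3 had 99 counts and replicate 1 had the highest level of all 6 libraries. The log2 difference was -0.07 ± 0.73 (SE; 95% interval -1.69 to 1.56; edgeR adjusted p = 0.9995). It was -0.52 without COX-competent replicate 3 and 0.52 without COX-competent replicate 1, and it was above 0 without COX-competent replicate 2 and without COX-deficient replicates 1 or 2, so no direction is given for Rac2.

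Summed over the 5 subunits, the level was 1902, 1551 and 693 CPM in the COX-competent libraries and 1883, 1912 and 1969 CPM in the COX-deficient libraries. COX-competent replicate 1 lay between the COX-deficient values, and COX-competent replicate 3 was the lowest. Beyond these 5 genes, 13 other oxidase subunits and regulators were tested, 0 were called, and their median log2 fold change was 0.34 beside 0.02 over all genes. The median was -0.02 without COX-competent replicate 3, beside 0.13 over all genes. Rac1, which can stand in for Rac2 and was named for that role and not by the rule on p, had a log2 fold change of 0.24 ± 0.40 (SE; edgeR adjusted p = 0.9995), and of -0.02 without COX-competent replicate 3. The smallest p-values of that list belonged to Arhgdib and Vav1. Arhgdib, which holds Rac proteins inactive in the cytosol of blood cells, was at 131, 77.5 and 61.6 CPM against 179, 174.5 and 137 CPM (log2 fold change 0.86 ± 0.45, SE; edgeR adjusted p = 0.741). Vav1, an exchange factor that activates Rac, was at 118, 151 and 123 CPM against 48.7, 98 and 98.7 CPM (log2 fold change -0.68 ± 0.48, SE; edgeR adjusted p = 0.949). Neither gene overlapped between the groups, and without COX-competent replicate 3 they were at 0.70 and -0.66. Of the 9 genes of other NOX and DUOX enzymes and their partners, 7 were at 0 in every library. Nox4 had 45 counts in COX-deficient replicate 2 alone and Noxo1, an organizer of the NOX1 enzyme, 35 in COX-competent replicate 3 alone. A count of 0 allows up to 3 counts, or 0.357 to 0.647 CPM in these libraries, for counting error only. Cybb was thus the only gene of a NOX or DUOX catalytic subunit with counts in all 6 libraries, among Cybb, Nox1, Nox3, Nox4, Duox1 and Duox2.

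**Figure D3:**
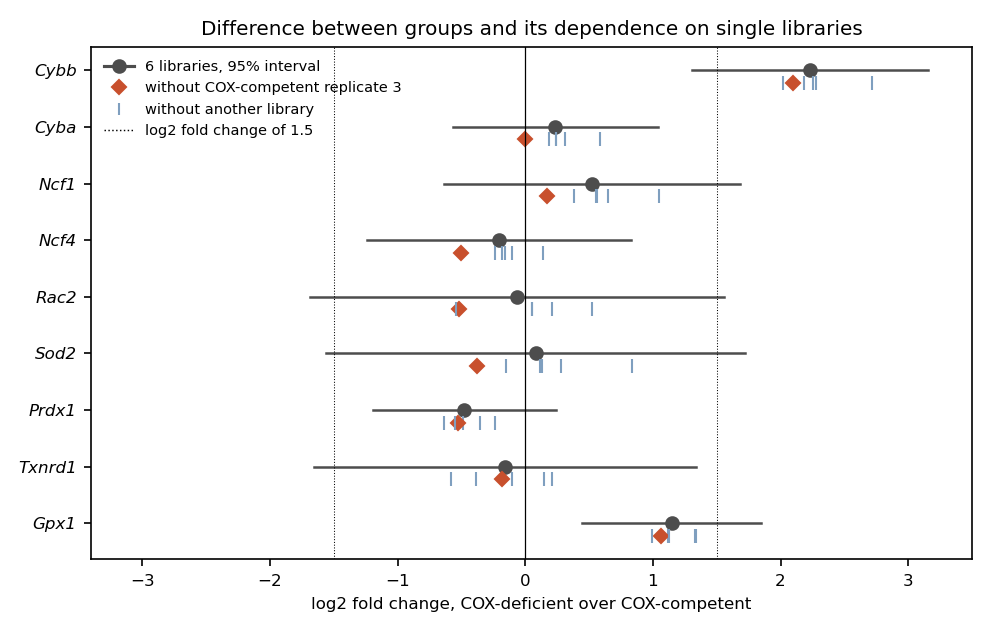
Log2 fold change of each gene, COX-deficient over COX-competent, with its unadjusted 95% interval from 6 libraries; diamonds leave out COX-competent replicate 3 and ticks each other library. The intervals of Cybb and Gpx1 lie right of 0 and the other 7 cross it; with a library left out, the points of Cybb, Gpx1, Cyba and Ncf1 stay right of 0, those of Prdx1 left, and those of Rac2, Sod2, Txnrd1 and Ncf4 fall on both sides.

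Among the antioxidant enzymes Gpx1 did not overlap between the groups and the other 3 did. Gpx1 (ENSMUSG00000063856, chr9:108338903-108340343, plus strand) encodes the selenium-dependent glutathione peroxidase of cytosol and mitochondria. It had 6932, 5247 and 3370 counts in the COX-competent libraries and 8341, 17127 and 11620 in the COX-deficient libraries, or 1105, 861 and 726 against 1522, 2039 and 2405 CPM. All COX-deficient libraries lay above all COX-competent ones, of which replicate 3 was the lowest. The means were 898 ± 192 and 1989 ± 443 CPM (SD, n = 3 each). The log2 fold change was 1.15 ± 0.32 (SE; 95% interval 0.45 to 1.85), or 2.22-fold, and the adjusted p of the edgeR quasi-likelihood test was 0.230. The alternatives put its adjusted p at 0.00228 to 0.734, and it passed 0.05 in 3 of 16, namely DESeq2 and both forms of limma voom, where the log2 fold change stayed under 1.5. Without COX-competent replicate 3 it was 1.06 (edgeR adjusted p = 0.274). The summed monocyte and macrophage markers given beside Cybb were higher in the same libraries, and their part in the level of Gpx1 was not tested either.

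Prdx1 (ENSMUSG00000028691, chr4:116685544-116700822, plus strand) encodes the main cytosolic peroxiredoxin. It measured 1115, 946 and 820 CPM in the COX-competent libraries and 475, 833 and 761 CPM in the COX-deficient libraries. The groups overlapped by a narrow margin, COX-deficient replicate 2 lying just above COX-competent replicate 3. The log2 fold change was -0.48 ± 0.32 (SE; 95% interval -1.19 to 0.24; edgeR adjusted p = 0.920), and it was below 0 in all 16 alternatives, from -0.64 to -0.24. Without COX-competent replicate 3 it was -0.53.

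The ratio of Gpx1 to Prdx1 counts was 0.991, 0.910 and 0.886 in the COX-competent libraries and 3.21, 2.45 and 3.16 in the COX-deficient libraries. The means were 0.929 ± 0.055 and 2.94 ± 0.425 (SD, n = 3 each). The 3 COX-competent libraries agreed closely here, COX-competent replicate 3 included. The other antioxidant ratios computed overlapped between the groups: Gpx1 to Sod2 was 3.93 to 43.8 against 12.3 to 20.1, Txnrd1 to Prdx1 0.0474 to 0.0895 against 0.0689 to 0.123, and Sod2 to Prdx1 0.0203 to 0.232 against 0.157 to 0.206. The Gpx1 to Prdx1 ratio was chosen after the values had been seen and was not tested.

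Sod2 and Txnrd1 showed no difference that could be separated from the spread. Sod2 (ENSMUSG00000006818, chr17:13006846-13040063, plus strand) measured 127, 219 and 16.6 CPM in the COX-competent libraries and 97.98, 166 and 120 CPM in the COX-deficient libraries. COX-competent replicate 3, with 77 counts, was 0.096 of the mean of the other 2 COX-competent libraries, and replicate 2 was the highest of all 6. The log2 difference was 0.08 ± 0.74 (SE; 95% interval -1.56 to 1.72; edgeR adjusted p = 0.9995), and it turned to -0.38 without COX-competent replicate 3 and to -0.15 without COX-deficient replicate 2. Txnrd1 (ENSMUSG00000020250, chr10:82833951-82897712, plus strand), the cytosolic reductase that recharges thioredoxin, measured 99.8, 44.8 and 62.5 CPM against 34.7, 57.4 and 93.7 CPM. Its log2 fold change was -0.16 ± 0.67 (SE; 95% interval -1.65 to 1.34; edgeR adjusted p = 0.9995), -0.18 without COX-competent replicate 3, and above 0 without COX-competent replicate 1 (0.21) or COX-deficient replicate 1 (0.15). Eid3 on the same strand and Gm38560 and Gm47073 on the other strand overlap Txnrd1, so its counts could hold or lose reads of theirs. The intervals of both genes allow more than a 2-fold difference in either direction.

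COX-competent replicate 3 was not low for all 9 genes alike. Relative to the mean of the other COX-competent libraries it was at 0.122 for Rac2, 0.261 for Ncf1, 0.348 for Ncf4 and 0.465 for Cyba, and at 0.665 for Cybb, 0.739 for Gpx1, 0.796 for Prdx1 and 0.865 for Txnrd1. Across the 6 libraries Cybb was most alike to Gpx1, with a Pearson correlation of log2 CPM of 0.95, and Sod2 to Ncf4 (0.93) and Ncf1 (0.91). Cybb and Ncf4, subunits of the same complex, had a correlation of 0.03. These values describe 6 libraries that share the group difference and the low COX-competent replicate 3, and they were not tested. Among tested genes with a mean of at least 50 CPM, the 5 most like Cybb were Pepd (0.998), Atp1b3 (0.997), Nr4a1 (0.993), Sepp1 (0.992) and Jun (0.991). They encode a dipeptidase, a subunit of the sodium pump, a nuclear receptor, a selenium carrier and a subunit of the AP-1 factor. They were picked for following Cybb, so a higher mean in the COX-deficient group comes with the choice. The means rose from 1167 to 2061 CPM for Jun and from 52.1 to 261 CPM for Pepd.

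The wider pathway was followed in 7 lists of 84 genes, the oxidase lists above included, of which 64 were tested and 0 were called by the edgeR quasi-likelihood test, with or without COX-competent replicate 3. At an unadjusted p under 0.05, 2 were higher and 2 lower, which is 6.25% of them beside 8.83% of all genes. Without overlap, 10 were higher and 6 lower, 25% beside 19.0% of all genes. Their median log2 fold change was 0.24. Without COX-competent replicate 3, 66 of them were tested, 4 were higher and 6 lower at an unadjusted p under 0.05 (15.2%, beside 8.86% of all genes), 12 were higher and 13 lower without overlap (37.9% beside 28.5%), and the median was 0.34 beside 0.13. Counts in the single lists below rest on few genes and nothing is read from them. The next paragraphs give, for each list, the 2 genes with the smallest p.

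**Figure D4:**
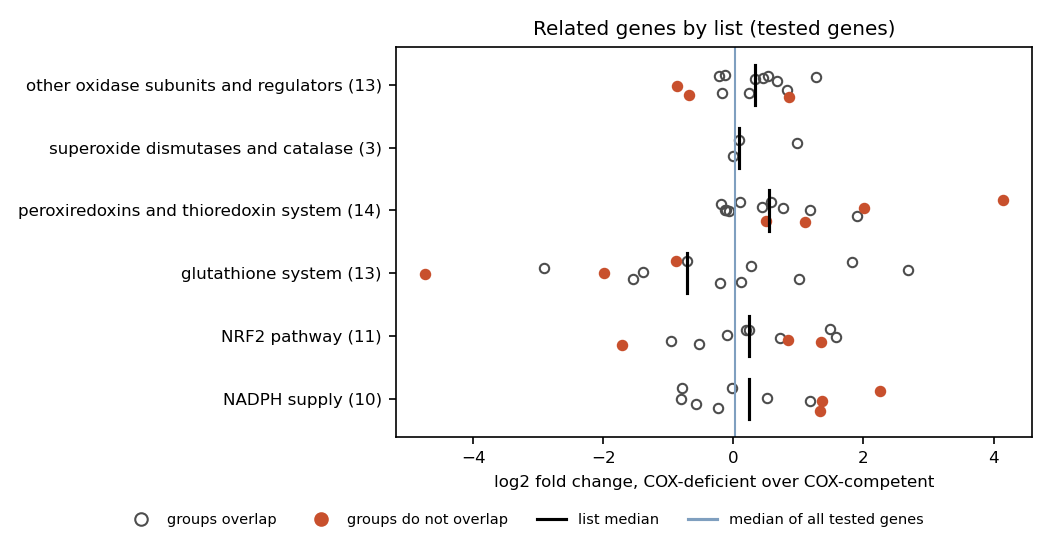
Log2 fold change of each tested gene in the 6 related lists that had any, COX-deficient over COX-competent, with the number tested in brackets; filled points are genes whose groups do not overlap. The glutathione list has its median below 0, at -0.71, and the other 5 medians lie between 0.08 and 0.54; without COX-competent replicate 3 (not drawn) the lists of dismutases with catalase and of oxidase regulators have medians of 0.96 and -0.02.

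Of the superoxide dismutases and catalase, 3 of 4 genes were tested, with a median of 0.08, and the median was 0.96 over 4 genes tested without COX-competent replicate 3. Catalase (Cat), which splits hydrogen peroxide in peroxisomes, was at 67.6, 3.61 and 24.8 CPM against 61.3, 53.7 and 73.7 CPM (log2 fold change 0.97 ± 1.02, SE; edgeR adjusted p = 0.9995), and Ccs, the copper chaperone of Sod1, had a log2 fold change of 0.08 (edgeR adjusted p = 0.9995). They were at 0.85 and 1.07 without COX-competent replicate 3. Sod1, the cytosolic dismutase, named after its values were seen, ranged over 502 to 574 CPM in the COX-competent group and 522 to 566 CPM in the COX-deficient group, and COX-competent replicate 3 was the lowest by a small margin.

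Of the peroxiredoxins and the thioredoxin system, 14 of 15 genes were tested, with a median of 0.54. Of these, 4 were higher and 0 lower without overlap (28.6% beside 19.0% of all genes), and 5 higher and 0 lower when COX-competent replicate 3 was left out (35.7% beside 28.5%). Txnip, the inhibitor that binds thioredoxin, was at 127.5, 85.3 and 0.647 CPM against 171, 355.5 and 338 CPM (log2 fold change 2.02 ± 1.10, SE; edgeR adjusted p = 0.770). COX-competent replicate 3 was nearly empty for it, and the other 2 COX-competent libraries still lay below every COX-deficient one. Without that library the log2 fold change of Txnip was 1.48 ± 0.45 (SE; edgeR adjusted p = 0.316). Prdx3, the mitochondrial peroxiredoxin, was near 0 in the COX-competent libraries, at 0.159, 3.28 and 0 CPM, and at 7.48, 17.7 and 37.0 CPM in the COX-deficient libraries (edgeR adjusted p = 0.866, and 0.774 without COX-competent replicate 3).

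Of the glutathione system, 13 of 19 genes were tested, with a median of -0.71. Without overlap, 3 were lower (23.1%, beside 19.0% of all genes), and when COX-competent replicate 3 was left out 5 were lower and 1 higher (46.2% beside 28.5%). Gstm1, a glutathione transferase, was at 50.7, 128 and 76.1 CPM against 26.6, 23.7 and 13.7 CPM, which is -1.99 ± 0.77 as a log2 fold change (SE; edgeR adjusted p = 0.420). Gpx8, a peroxidase of the endoplasmic reticulum, was at 9.09, 34.96 and 30.2 CPM against 1.28, 1.43 and 0 CPM (edgeR adjusted p = 0.691). Gstm1 was at -2.00 on the log2 scale and Gpx8 at -4.50 without COX-competent replicate 3. Both genes were lower in every COX-deficient library, whereas Gpx1 was higher in every one. The summed melanoma and fibroblast markers were also lower in every COX-deficient library. That list was chosen with earlier results of these data known. It holds Fermt2, Sdpr and Prkg2, numbers 21, 44 and 50 of all genes tested when ordered by p. The direction of the sum is thus not independent of these data. Sparc gave the largest share of that sum in the COX-competent libraries, whereas Mitf, a melanocyte factor, was higher without overlap, at 1.91, 0 and 0.647 CPM against 10.6, 44.3 and 18.2 CPM. Their part in the levels of Gstm1 and Gpx8 was not tested.

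Of the NRF2 pathway, 11 of 13 genes were tested, with a median of 0.24. Without overlap, 2 were higher and 1 lower (27.3% beside 19.0% of all genes). When COX-competent replicate 3 was left out, 2 were higher and 4 lower (50% beside 28.5%). At an unadjusted p under 0.05 in the edgeR test, 18.2% passed beside 8.83% of all genes, and 33.3% beside 8.86% without that library. Hmox1, the heme oxygenase, had the smallest p of the related genes. It was at 2045, 3403 and 1453 CPM in the COX-competent libraries and 561, 995 and 558 CPM in the COX-deficient libraries, which did not overlap (log2 fold change -1.71 ± 0.40, SE; edgeR adjusted p = 0.158). Ftl1, the ferritin light chain that stores the iron freed from heme, was at 541, 244.5 and 525 CPM against 551, 1255 and 1547 CPM (log2 fold change 1.36 ± 0.45, SE; edgeR adjusted p = 0.346). The COX-deficient replicate 1 value of Ftl1 lay just above the COX-competent range, so the groups came close without overlap. Without COX-competent replicate 3, Hmox1 was at -1.89 on the log2 scale (edgeR adjusted p = 0.0858) and Ftl1 at 1.55 (edgeR adjusted p = 0.348). Nqo1, another known NRF2 target and named after its values were seen, was at 0 in every library.

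Of the genes that supply NADPH, the oxidase's fuel, 10 of 11 were tested, with a median of 0.24. Of these, 3 were higher and 0 lower without overlap (30% beside 19.0% of all genes), and 3 higher and 2 lower when COX-competent replicate 3 was left out (50% beside 28.5%). Idh2, the mitochondrial isocitrate dehydrogenase, was at 92.1, 55.5 and 49.8 CPM against 107, 216 and 185 CPM (log2 fold change 1.36 ± 0.49, SE; edgeR adjusted p = 0.376). Taldo1, an enzyme of the pentose phosphate pathway, was at 975, 1176 and 356.5 CPM against 521.5, 414 and 509 CPM (log2 fold change -0.80 ± 0.42, SE; edgeR adjusted p = 0.748). It overlapped through COX-competent replicate 3 alone, the lowest of all 6 libraries, without which the log2 fold change was -1.11 ± 0.27 (SE; edgeR adjusted p = 0.188). Idh2 was then at 1.24.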

How the data were processed

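The authors deposited 1 table of raw read counts per gene for 6 libraries of sorted TAMs, made with a 3′-end kit (QuantSeq FWD) from 800 pg of total RNA. Per the methods, reads were trimmed with BBDUK, fqtrim and cutadapt, aligned to GRCm38 with STAR and assigned to Ensembl genes with featureCounts. The strand setting, the versions of these tools and the treatment of reads with several alignments were not given in the sources used here, so genes with near-identical copies, such as Ftl1, are uncertain, as are overlapping genes. Counts of 3′ ends do not grow with transcript length, and CPM was not divided by it; PCR copies cannot be told from molecules, so floors cover counting error only.

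Counts were fitted in R 4.3.3 with edgeR 4.0.16: filterByExpr at its defaults (minimum count 10, total 15), TMM, and a two-sided quasi-likelihood test with Benjamini-Hochberg adjustment, after a check on simulated data. The SE is the log2 fold change over the root of its F statistic. Alternatives used limma 3.58.1, DESeq2 1.42.0, the likelihood ratio test, other scalings and filters, a replicate block and each library left out. Log2 CPM for correlations used a prior count of 2. Positions are from GENCODE M21, counted from 1.

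The genes and lists were chosen with earlier results of these data known. Named were every listed gene, the 2 tested genes with the smallest p of each related list, NOX and DUOX genes with a count, and the 5 genes most like Cybb.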

Additional observations from a re-analysis of the deposited data

How the results depend on the processing

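Of the 9 genes, 1 was called without the low-count filter, by the likelihood ratio test, by DESeq2, by limma voom with and without sample quality weights, and under the replicate block, and it was Cybb each time. The number of genes called in all was 19, and it was 252 without the filter, 241 by the likelihood ratio test, 328 by DESeq2, 96 by limma voom, 123 with sample quality weights and 77 under the replicate block. Leaving out 1 library gave 0 to 25 calls: 0 without COX-competent replicate 1 (edgeR, with 1231 genes at an unadjusted p under 0.05), 11 without COX-competent replicate 2, 25 without COX-competent replicate 3, and 2, 4 and 3 without COX-deficient replicates 1, 2 and 3. The causes were not tested. Of the related genes, 2 were called without the filter (Txnip and Hmox1), 2 with sample quality weights (Hmox1 and Ftl1), and 1, Hmox1, by the likelihood ratio test, DESeq2, limma voom and the replicate block. Rac2 changed sign under limma voom (0.11), with sample quality weights (0.0080) and under the replicate block (0.13), and ranged from -0.54 to 0.52 when 1 library was left out. By leaving out 1 library, Txnrd1 ranged from -0.58 to 0.21, Ncf4 from -0.51 to 0.14 and Sod2 from -0.38 to 0.84. Cybb, Cyba, Ncf1, Prdx1 and Gpx1 kept their sign in all 16 alternatives. The median log2 fold change of all genes, 0.02, was 0.34 under limma voom, 0.39 with sample quality weights, 0.26 under the replicate block, 0.14 without COX-competent replicate 1 and 0.13 without COX-competent replicate 3. Same-numbered replicates did not deviate together (correlations of -0.049, -0.022 and -0.022), so the numbers were not taken as pairs. The common coefficient of variation between libraries was 1.26.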
